A study of Mus musculus with 6 samples.

Results

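Imprinted genes of the neonatal mouse cochlea were followed in knockout and wild-type libraries. The set held 36 genes listed by name and matched by symbol to the Ensembl identifiers of the deposited tables, of 55769 features in all. From general knowledge, 22 of them are expressed mainly from the paternal copy and 12 mainly from the maternal copy, while Grb10 and Gnas give transcripts of both kinds. All 36 were above 0 in every library, and 33 reached the level needed for testing. Rtl1, Asb4 and Nespas did not, and only their levels are given.

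The cochlea, where the inner ear senses sound, was sampled on postnatal day 3 (P3), and its RNA was sequenced from 3 Plscr5-/- (knockout) and 3 wild-type libraries. Plscr5 belongs to the phospholipid scramblase family of membrane proteins. The label of the knockout group names this allele only, with no word on strain, sex, the way the allele was made or the number of animals per library. Nothing in the labels says that each library is another animal, and the p-values therefore cover only library-to-library spread, which may be technical. The extraction text speaks of a heterozygous Pou4f3 line that no library lists, and groups follow the genotype field. Values are in TPM (a transcript level scaled by transcript length to a fixed library total), so levels of different genes can be set side by side, but the sequencing depth behind them is unknown.

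Genomic imprinting marks DNA by methylation in the egg or the sperm, so that a gene is later read mainly from the copy of one parent. Imprinted genes lie in clusters in which an imprinting control region often acts through a long noncoding RNA or an insulator. Several of them, such as Igf2, are known as regulators of fetal growth, and others, such as Snrpn and Ube3a, for their roles in neurons. Parental copies were not told apart in these data, and "paternal" and "maternal" below are background labels for each gene's total level.

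Plscr5 itself, the check of the genotype labels, stood at 4.30, 3.69 and 5.01 TPM in knockout libraries and 14.5, 12.4 and 9.27 TPM in wild-type libraries (35.9% of the wild-type mean, log2 fold change -1.28, limma with Benjamini-Hochberg adjusted p = 0.29). All 10 hair cell markers reached the level needed for testing. Wild type 3 stood apart from the other libraries in several marker lists. The median of 12 spiral ganglion neuron markers, relative to the mean of the 6 libraries on the log2 scale, was -1.38 there, against -0.04 and 0.24 in the other wild-type libraries and 0.57, 0.43 and 0.14 in the knockout. The same median over the Schwann cell markers (the myelinating glia of the nerve) was -1.53 in wild type 3, 0.07 and 0.19 in the other wild-type libraries, and 0.77, 0.28 and 0.16 in the knockout. The sum of the osteoblast markers was also lowest there, at 68.2 TPM against 173 to 256 in the other libraries. Their median differed less, at -0.20 there and -0.08 and -0.09 in the other wild-type libraries. Of the 8 tested osteoblast markers, 4 had their lowest value in wild type 3. Cartilage markers had their highest sum there, 7002 TPM against 5230 to 5955. Skeletal muscle markers summed to 26.0 to 29.4 TPM in the knockout and 25.9 to 30.7 in the wild type. Values without wild type 3 are therefore given beside the genotype differences it moved most, and for all 33 tested genes in the plot of fold changes. Over the neuronal markers the median log2 fold change was 0.82 (11 of 12 above 0), and over the Schwann cell markers 0.85 (9 of 9). Without wild type 3 these medians were 0.295 and 0.275. Leaving out that library thus lessens the difference in nerve markers but does not remove it. In bulk tissue, fewer cells of a type and less RNA per cell cannot be told apart.

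The imprinted set was well represented at this age. Together the 36 genes summed to 5479, 5201 and 5007 TPM in the knockout and 4860, 5160 and 4766 in the wild type. Averaged over the 6 libraries, 9 genes were above 100 TPM, 14 were between 10 and 100 TPM, and 13 were at or under 10 TPM. At the top were Gnas (1373 TPM), which encodes the stimulatory G protein alpha subunit, the noncoding RNA H19 (1049 TPM) and the growth factor gene Igf2 (602 TPM). They were followed by Meg3 (390.0 TPM), the tetraspanin gene Cd81 (344 TPM), the small membrane proteolipid gene Nnat (310.0 TPM), Rian (192 TPM), the signalling adaptor gene Grb10 (159 TPM, an inhibitor of insulin and IGF1 receptors) and Mest (114 TPM). The 7 genes under 2 TPM were Dlk1, Phlda2, Kcnq1ot1, Magel2, Asb4, Rtl1 and Nespas.

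**Figure D1:**
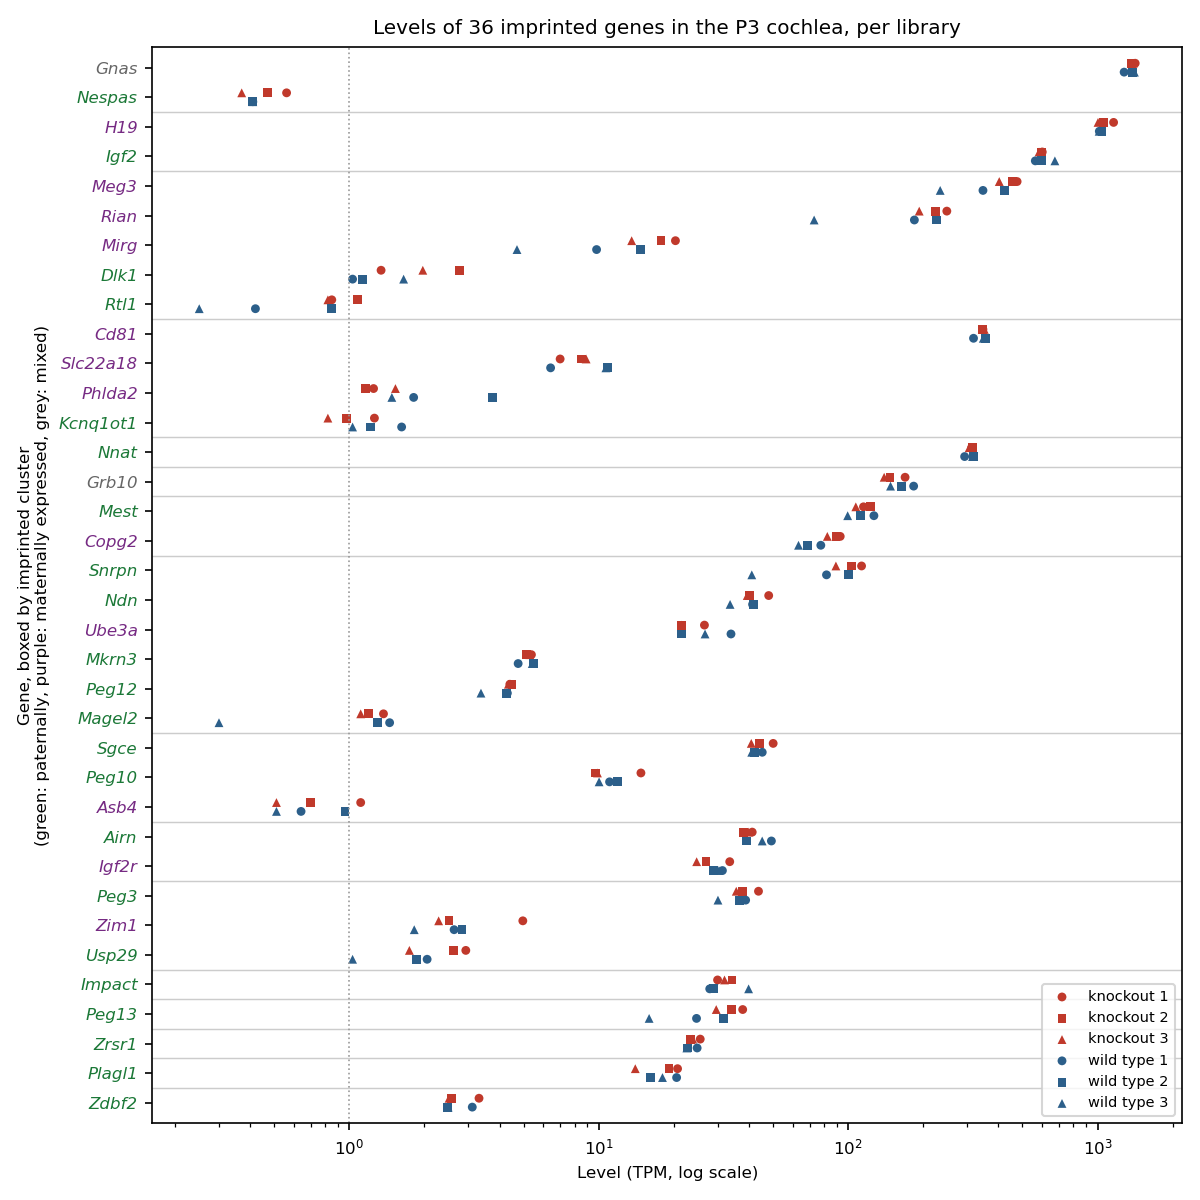
Level of each of the 36 imprinted genes in TPM on a log axis, 1 point per library (red, knockout; blue, wild type; symbols give the library number), ordered by cluster. The dotted line marks the filter of 1 TPM. Gnas, H19 and Igf2 stand highest, and the triangles of wild type 3 lie left of the other points for Rian, Mirg, Snrpn, Peg13 and Magel2.

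No imprinted gene passed the test between genotypes. Of the 33 tested, 0 were past the adjusted p of 0.05 in either direction (limma, Benjamini-Hochberg over 17097 features, adjusted p from 0.989 to 0.998), beside 0 features (0.0%) higher in the knockout and 2 features (0.0117%) lower. At an unadjusted p under 0.05, limma gave 1 imprinted gene, Copg2, and 684 of the 17097 features (4.0%). In 2 tested genes, Copg2 and Peg12, every knockout library lay above every wild-type library, beside 4.6% of all features, and in 0 they all lay below, beside 4.74%. The median log2 fold change of the 36 genes was 0.05 (27 above 0 and 9 below), against -0.01 over all tested features, of which 46.6% were above 0. It was 0.05 for the paternal group (18 of 22 above 0) and 0.06 for the maternal group (8 of 12 above 0).

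The fit set bounds on how far the values could differ on the log2(TPM + 1) scale. In 28 of the 33 tested genes the 95% confidence interval of the fold change stayed within 2-fold in both directions, and in 20 within 1.5-fold. Positive fold changes mean a higher mean in the knockout, and the added pseudocount of 1 TPM shrinks those of low genes such as Dlk1. With a pseudocount of 0.1 the log2 fold change of Dlk1 was 0.60 instead of 0.40. For such low genes the intervals therefore do not bound the change of the level itself. The median coefficient of variation over the 6 libraries was 14.6% for the 36 genes, against 12.3% over all tested features.

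**Figure D2:**
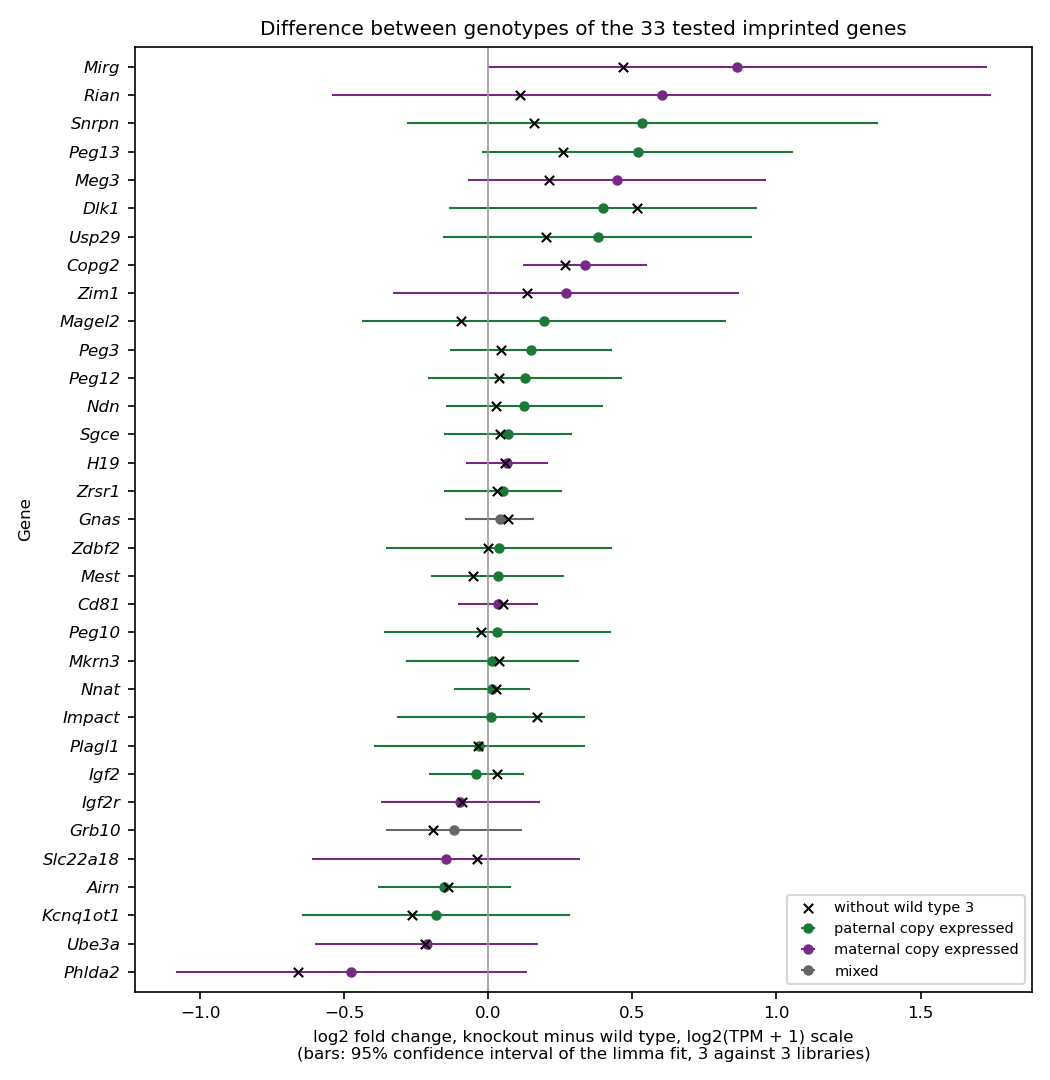
Log2 fold change of log2(TPM + 1), positive where the knockout mean is higher, of the 33 tested imprinted genes with its 95% confidence interval from limma, 3 libraries per genotype. Circles are coloured by the copy known to be expressed, and crosses give the value without wild type 3. Of the 33 intervals only that of Copg2 (0.12 to 0.55) leaves out 0, and the crosses of Rian, Snrpn, Peg13, Meg3 and Mirg lie nearer to 0 than their circles.

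After Gnas, the H19-Igf2 cluster gave the highest levels of the set, and its groups overlapped. Igf2, the paternally expressed fetal growth factor, stood at 600.3, 595 and 583 TPM in knockout libraries and 563, 598 and 675 TPM in wild-type libraries. The groups overlapped, with wild type 3 the highest of all, and the log2 fold change was -0.04 (95% confidence interval -0.21 to 0.12, limma unadjusted p = 0.576). In wild type 3, low in nerve markers, Igf2 was at 116% of the mean of the other wild-type libraries. Gm49394 shares 3596 exonic bases (62.8% of those of Igf2) on the same strand and was at 0.08 TPM or less in every library. How reads were divided between Igf2 and Gm49394 is not known. H19, the maternally expressed noncoding RNA that shares enhancers with Igf2, stood at 1160, 1056 and 1004 TPM in knockout libraries and 1017, 1042 and 1015 TPM in wild-type libraries. The log2 fold change of H19 was 0.06 (interval -0.08 to 0.21, limma unadjusted p = 0.320), and the groups overlapped. For both genes the interval leaves out a change of 1.5-fold in either direction.

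H19 also carries a microRNA in an exon, and its mature products are shown because they tie the most abundant noncoding RNA of the set to a small RNA product. They come from RefSeq (GRCm38.p6, minus strand, chr7:142577112-142577133 for the 5p product), with the seed, bases 2 to 8, in capitals.
miR-675-5p: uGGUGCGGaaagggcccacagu
miR-675-3p: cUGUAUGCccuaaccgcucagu
Of the microRNA genes in the RefSeq table, 29 lie within genes of the set, among them 14 within Mirg, 3 within Rian and 1 each within H19, Igf2, Meg3, Mest and Usp29. All 29 were listed at 0 in every library, so these tables give no level for any of the mature products.

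The receptor that clears IGF2 and the antisense RNA opposite it also had overlapping groups. Igf2r, the maternally expressed receptor that takes up IGF2 for degradation, stood at 33.5, 26.9 and 24.7 TPM in knockout libraries and 31.3, 28.9 and 30.3 TPM in wild-type libraries. All wild-type values lay inside the knockout range, and the log2 fold change was -0.10 (interval -0.37 to 0.18, limma unadjusted p = 0.443). Airn, the paternal antisense RNA that silences Igf2r in cis, stood at 41.2, 38.2 and 39.8 TPM in knockout libraries and 49.2, 39.1 and 45.2 TPM in wild-type libraries. Wild type 1 and wild type 3 exceeded every knockout library and wild type 2 did not, for a log2 fold change of -0.15 (interval -0.38 to 0.08, limma unadjusted p = 0.164). Airn RNA was above Igf2r RNA in all 6 libraries, by 1.23 to 1.61 times.

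The Dlk1-Meg3 cluster set abundant maternal noncoding RNAs beside scarce paternal protein transcripts. The maternal RNAs Meg3, Rian and Mirg summed to 312 to 745 TPM per library, while the paternal protein genes Dlk1 and Rtl1 together stayed at 1.45 to 3.85 TPM. The maternal sum was thus 164 to 373 times the paternal sum. Dio3, the other protein gene of the locus, was listed at 0 in every library except knockout 3 (0.10 TPM).

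Meg3 stood at 476, 456 and 404 TPM in knockout libraries and 347, 424 and 234 TPM in wild-type libraries. Knockout 1 and knockout 2 lay above all wild-type libraries, knockout 3 lay within their range, and wild type 3 was the lowest. The log2 fold change was 0.45 (interval -0.07 to 0.96, limma unadjusted p = 0.0787, Benjamini-Hochberg adjusted p = 0.989) and 0.21 without wild type 3. Mirg, the microRNA host downstream, stood at 20.3, 17.8 and 13.6 TPM in knockout libraries and 9.80, 14.7 and 4.70 TPM in wild-type libraries. Its groups overlapped through knockout 3 and wild type 2, with a log2 fold change of 0.86 (interval -0.00 to 1.73, limma unadjusted p = 0.0505), which became 0.47 without wild type 3. Rian, the host of C/D box small nucleolar RNAs, stood at 249, 224 and 193 TPM in knockout libraries and 184, 226 and 73.0 TPM in wild-type libraries. The low value of Rian is again that of wild type 3, and the log2 fold change of 0.60 became 0.11 without that library.

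Relative to the mean of the other wild-type libraries, wild type 3 held 60.7% of Meg3, 35.6% of Rian and 38.4% of Mirg. In the same library the neuronal marker Tubb3 was at 22.2%. The part of nerve tissue content in the maternal transcripts' differences was not tested.

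Dlk1, a membrane protein of the Notch ligand superfamily, did not follow its maternal neighbours in wild type 3. It stood at 1.34, 2.77 and 1.97 TPM in knockout libraries and 1.03, 1.13 and 1.65 TPM in wild-type libraries, where wild type 3 was the highest of its group. The groups overlapped, and the log2 fold change was 0.40 (interval -0.14 to 0.93, limma unadjusted p = 0.125) and 0.51 without wild type 3. Rtl1, a protein gene derived from a retrotransposon, stood at 0.85, 1.08 and 0.82 TPM in knockout libraries and 0.42, 0.85 and 0.25 TPM in wild-type libraries, too low for the test.

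Rtl1 is overlapped on the opposite strand by microRNA genes of the maternal copy, and these are shown because their sequences are complementary to Rtl1. Among the genes of the set they lie within Rtl1 only, and not within Meg3, Rian or Mirg. In RefSeq (GRCm38.p6), 13 mature microRNAs of 21 to 23 bases lie within the Rtl1 coding sequence, with 13 distinct seeds. The 11 that come from 6 genes on the opposite strand matched the Rtl1 transcript of GENCODE M21 (6358 bases, 5232 coding) in full complementarity. Such a match follows from their place opposite the coding sequence. The other two come from Mir3071, on the strand of Rtl1. In the mature sequences capitals mark the seed, and in the Rtl1 sites they mark the bases opposite the seed.
miR-127-3p, chr12:109592888-109592909, plus strand: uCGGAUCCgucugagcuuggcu
Rtl1 site of miR-127-3p, transcript bases 2642 to 2663: agccaagctcagacGGATCCGa
miR-136-3p, chr12:109595366-109595387, plus strand: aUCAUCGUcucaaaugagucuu
Rtl1 site of miR-136-3p, transcript bases 164 to 185: aagactcatttgagACGATGAt
miR-433-3p, chr12:109591781-109591802, plus strand: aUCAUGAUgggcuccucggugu
miR-434-3p, chr12:109594565-109594586, plus strand: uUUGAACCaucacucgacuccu
miR-431-3p, chr12:109590502-109590523, plus strand: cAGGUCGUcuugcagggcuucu
The match is a description of the sequences. The level of these microRNAs was listed at 0 in all libraries, and the strand setting of the counting is not known.

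The window before the start of Meg3 is shown because its transcript led the cluster. It covers 250 bases of the RefSeq promoter entry (GRCm38.p6, chr12:109540746-109540995, plus strand), and capitals mark, in order, the complement of TGCCGC, a core bound by the imprint-keeping zinc finger protein ZFP57, and the cAMP response element TGACGTCA.
Meg3: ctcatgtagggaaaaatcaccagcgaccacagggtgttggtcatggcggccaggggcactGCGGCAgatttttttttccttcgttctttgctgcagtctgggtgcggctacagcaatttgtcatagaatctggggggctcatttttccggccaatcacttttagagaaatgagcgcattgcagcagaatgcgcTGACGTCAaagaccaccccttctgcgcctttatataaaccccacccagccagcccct
Promoter windows were given for 29 of the 36 genes. TGCCGC, searched on both strands, was in the windows of 10 of the 29 genes (34.5%), against 13.1% of 27025 genes with a window. By window the share was 25.0%, against 11.6% of all windows. TGCCGC contains a CpG, and windows of the set held a median of 13 CpG, against 7 over all windows. The part of CpG content in this share was not tested. TGACGTCA, which reads the same on both strands, was searched after the sequences had been seen. It was in the windows of Meg3, Peg3, Usp29 and Zdbf2 (13.8%), against 2.03% of all genes. By window the share was 9.09%, against 1.79% of all windows. Because the motif was picked from these same sequences, the comparison is no test of enrichment. The windows of Peg3 and Usp29 overlap and hold the same site, which is therefore counted for both genes.

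The Peg3 cluster also had its lowest values in wild type 3, for all 3 of its genes. Peg3, a paternally expressed zinc finger protein, stood at 43.7, 37.7 and 35.6 TPM in knockout libraries and 38.8, 36.6 and 30.1 TPM in wild-type libraries. Its groups overlapped, with a log2 fold change of 0.15 (interval -0.13 to 0.43, limma unadjusted p = 0.258) and 0.04 without wild type 3. Usp29, a ubiquitin peptidase gene that starts beside Peg3 and runs the other way, stood at 2.93, 2.62 and 1.74 TPM in knockout libraries and 2.05, 1.86 and 1.03 TPM in wild-type libraries. Knockout 3 lay among the wild-type values, and the log2 fold change was 0.38 (interval -0.16 to 0.91, limma unadjusted p = 0.140), or 0.20 without wild type 3. Zim1, the maternally expressed zinc finger gene, stood at 4.96, 2.51 and 2.28 TPM in knockout libraries and 2.63, 2.83 and 1.82 TPM in wild-type libraries. Knockout 1 alone was high, and the log2 fold change of 0.27 (interval -0.33 to 0.87, limma unadjusted p = 0.332) was -0.00 without it and 0.13 without wild type 3. Usp29 shares 2582 exonic bases (14.3% of its own) with Zim3 on the opposite strand, and Zim3 was listed at 0 in all libraries.

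The window before the start of Peg3 is shown because it overlaps the window of Usp29, whose start is another one. Both windows hold the same cAMP response element, in capitals (RefSeq, GRCm38.p6, chr7:6730420-6730669, minus strand).
Peg3: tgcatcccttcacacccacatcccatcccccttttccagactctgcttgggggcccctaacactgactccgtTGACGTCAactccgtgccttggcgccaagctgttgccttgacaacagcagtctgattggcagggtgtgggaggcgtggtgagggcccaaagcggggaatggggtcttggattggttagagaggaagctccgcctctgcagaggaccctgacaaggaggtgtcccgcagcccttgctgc
Peg3 RNA was 37.1 TPM on average and Usp29 RNA 2.04 TPM, so the transcripts that start in these overlapping windows differed widely in level.

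In the Mest cluster lay the only gene of the set whose groups were fully apart with a confidence interval above 0. Copg2, which encodes a coatomer subunit of vesicles between the Golgi and the endoplasmic reticulum, stood at 92.9, 89.4 and 82.5 TPM in knockout libraries (88.3 ± 5.30, SD, n = 3) and 77.7, 68.7 and 63.2 TPM in wild-type libraries (69.9 ± 7.30, SD, n = 3). All 3 knockout libraries lay above all 3 wild-type libraries. The log2 fold change was 0.34 (SE 0.09, interval 0.12 to 0.55, limma unadjusted p = 0.00724, Benjamini-Hochberg adjusted p = 0.989), and 0.27 to 0.41 with each library left out in turn. This difference did not pass the test over all features, and non-overlap of this kind was found in 4.6% of them. Mest, the paternally expressed hydrolase gene of mesoderm, stood at 115, 123 and 107 TPM in knockout libraries and 127, 112 and 99.6 TPM in wild-type libraries. Its groups overlapped widely, with a log2 fold change of 0.03 (interval -0.20 to 0.26, limma unadjusted p = 0.754).

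Mest and Copg2 face each other and share 912 exonic bases on opposite strands in GENCODE M21, which is 23.1% of the exonic bases of Mest and 17.8% of those of Copg2. Without strand, reads from this stretch cannot be told apart between them, so both levels are uncertain to that extent. The ratio of Mest to Copg2 within a library was log2 0.31, 0.46 and 0.38 in the knockout (0.38 ± 0.07, SD, n = 3) and 0.71, 0.71 and 0.65 in the wild type (0.69 ± 0.03, SD, n = 3). The groups did not overlap, with a difference of -0.31 (two-sided exact permutation test, p = 0.1, the smallest that 3 against 3 can give, and 0.8 after Benjamini-Hochberg adjustment over 8 clusters).

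The Mest start is shown because its window holds more ZFP57 cores than that of Meg3. It holds TGCCGC 2 times, on the complementary strand, as marked by capitals (RefSeq, GRCm38.p6, chr6:30737800-30738049, plus strand).
Mest: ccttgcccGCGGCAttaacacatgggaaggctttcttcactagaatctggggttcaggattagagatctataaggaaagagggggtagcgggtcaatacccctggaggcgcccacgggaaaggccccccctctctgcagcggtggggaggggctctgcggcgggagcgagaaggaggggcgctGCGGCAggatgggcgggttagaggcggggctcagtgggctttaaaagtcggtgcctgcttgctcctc
A match to these letters is not a measured binding site.

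The Snrpn-Ube3a cluster divided into genes that were low in wild type 3 and genes that were not. Snrpn, the paternally expressed gene of the neuronal splicing protein SmN, stood at 113, 103 and 89.3 TPM in knockout libraries and 81.9, 101 and 41.1 TPM in wild-type libraries. Wild type 3 was the lowest, at 45.0% of the mean of the other wild-type libraries, and the log2 fold change of 0.53 (interval -0.28 to 1.35, limma unadjusted p = 0.160) was 0.16 without it. Ube3a, the ubiquitin ligase gene whose imprinting is known from neurons, stood at 26.5, 21.5 and 21.5 TPM in knockout libraries and 33.9, 21.4 and 26.7 TPM in wild-type libraries. Its log2 fold change was -0.21 (interval -0.60 to 0.17, limma unadjusted p = 0.238), with wild type 1 the highest and the groups overlapping. Magel2, a MAGE family gene, was at 0.30 TPM in wild type 3 and between 1.11 and 1.45 TPM elsewhere. Its MAGE relative Ndn (33.6 to 48.0 TPM) was also lowest in wild type 3, while the makorin gene Mkrn3 ran only from 4.75 to 5.48 TPM.

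Peg12, a gene of the FRAT family of Wnt pathway proteins, was the other gene without overlap. It stood at 4.40, 4.49 and 4.34 TPM in knockout libraries and 4.30, 4.25 and 3.37 TPM in wild-type libraries. The lowest knockout and the highest wild-type library differed by little, and the log2 fold change was 0.13 with all libraries and 0.04 without wild type 3.

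Neighbouring transcripts limit how far the Snrpn values can be read. Snurf, which shares 216 exonic bases (10% of those of Snrpn) on the same strand, stood at 179.5, 171 and 71.3 TPM in knockout libraries and 58.9, 165 and 102 TPM in wild-type libraries, an order of libraries other than that of Snrpn. Gm38393 shares 589 exonic bases (27.3% of those of Snrpn) on the same strand and was at 0.21 TPM or less in every library. How reads were divided between Snrpn and these neighbours is not known. Snhg14, the noncoding RNA that runs antisense over Ube3a and is known to silence its paternal copy in neurons, stood at 449, 334 and 216 TPM in knockout libraries and 366, 335 and 85.4 TPM in wild-type libraries. Its log2 fold change of 0.54 (limma unadjusted p = 0.461) was -0.14 without wild type 3. Snhg14 shares 1803 bases (8.74% of the exonic bases of Ube3a) with Ube3a on the opposite strand.

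Peg13, a paternal noncoding RNA inside an intron of Trappc9, had the third smallest p of the set. It stood at 37.8, 34.1 and 29.6 TPM in knockout libraries and 24.7, 31.6 and 15.9 TPM in wild-type libraries. Knockout 1 and knockout 2 lay above every wild-type library, knockout 3 did not, and the log2 fold change was 0.52 (interval -0.02 to 1.06, limma unadjusted p = 0.0576). Without wild type 3, which held 56.5% of the mean of the other wild-type libraries, it was 0.26. Trappc9 itself, on the same strand, ran from 24.0 to 27.8 TPM with a log2 fold change of -0.03. Kcnk9, a potassium channel gene imprinted in the same cluster, stood at 6.85, 4.56 and 3.44 TPM in knockout libraries and 3.21, 4.28 and 0.93 TPM in wild-type libraries, again lowest in wild type 3, with a log2 fold change of 0.73 (limma unadjusted p = 0.103), or 0.30 without that library.

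In the Kcnq1 cluster 3 of the 4 log2 fold changes were below 0. Kcnq1ot1, the paternal noncoding RNA that silences the cluster in cis, stood at 1.26, 0.97 and 0.82 TPM in knockout libraries and 1.62, 1.22 and 1.03 TPM in wild-type libraries. Its log2 fold change was -0.18 (interval -0.65 to 0.28, limma unadjusted p = 0.396), with the groups overlapping. Phlda2, a maternal gene known as a brake on placental growth, stood at 1.25, 1.16 and 1.53 TPM in knockout libraries and 1.81, 3.74 and 1.48 TPM in wild-type libraries. The single high value was wild type 2, and the log2 fold change was -0.48 (interval -1.08 to 0.13, limma unadjusted p = 0.110), or -0.19 without that library and -0.66 without wild type 3. Cd81, a tetraspanin gene imprinted mainly in the placenta, stood at 347, 345 and 351 TPM in knockout libraries and 318, 355 and 348 TPM in wild-type libraries. For Cd81 the log2 fold change was 0.03 (interval -0.11 to 0.17, limma unadjusted p = 0.606). Slc22a18, a transporter gene, ran from 6.41 to 10.8 TPM (log2 fold change -0.15). Cdkn1c, the cell cycle inhibitor of this cluster, which belongs to a wider list of imprinted genes, ran from 551 to 624 TPM with a log2 fold change of -0.10.

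The Peg10 cluster had small differences between group means. Sgce, the paternal epsilon-sarcoglycan gene, stood at 50.04, 44.2 and 40.9 TPM in knockout libraries and 45.2, 42.1 and 41.0 TPM in wild-type libraries, a log2 fold change of 0.07 (interval -0.15 to 0.29, limma unadjusted p = 0.492). Asb4, its maternal neighbour, stood at 1.11, 0.70 and 0.51 TPM in knockout libraries and 0.64, 0.96 and 0.51 TPM in wild-type libraries, under the filter. Peg10, a retrotransposon-derived gene, ran from 9.67 to 14.8 TPM, with knockout 1 the highest and a log2 fold change of 0.03.

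The remaining genes stand alone in the set or beside a partner of mixed origin. Gnas ran from 1278 to 1416 TPM (log2 fold change 0.04) and its antisense RNA Nespas from 0.37 to 0.56 TPM, and 988 exonic bases are shared by these genes on opposite strands, 31.4% of those of Nespas. Nnat had the smallest spread of all 36, from 293 to 318 TPM with a coefficient of variation of 2.99%. Grb10 ran from 139 to 183 TPM (log2 fold change -0.12, interval -0.35 to 0.12). Impact, an inhibitor of the stress kinase GCN2, ran from 27.9 to 39.9 TPM, and its highest value was wild type 3. The log2 fold changes of Impact, Plagl1 (a zinc finger transcription factor), Zrsr1 (a splicing factor retrogene inside Commd1) and Zdbf2 (a zinc finger gene) were 0.01, -0.03, 0.05 and 0.04. Plagl1 ran from 14.0 to 20.7 TPM, Zrsr1 from 22.6 to 25.5 and Zdbf2 from 2.48 to 3.31.

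Across clusters, low values recurred in wild type 3. Among the 33 tested genes, 14 had their lowest value in wild type 3, beside 20.9% of all tested features. They included 3 of the 4 tested Dlk1-Meg3 genes, all 3 Peg3 genes, 4 of the 6 Snrpn-Ube3a genes and Peg13. By copy, 10 of the 22 paternal genes and 5 of the 12 maternal genes (untested ones included) had their lowest value there. Nerve markers were low in the same library, with 11 of 12 neuronal and 9 of 9 Schwann cell markers at their lowest in it, as were 10 of 11 cell division markers, and osteoblast markers had their lowest sum there. Their part in the low values of the imprinted genes was not tested. Without wild type 3 the median log2 fold change of the 36 genes was 0.04, with 23 above 0. Leaving out knockout 1 moved this median further, to 0.01, with 22 above 0. With each library left out in turn it ran from 0.01 to 0.11.

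**Figure D3:**
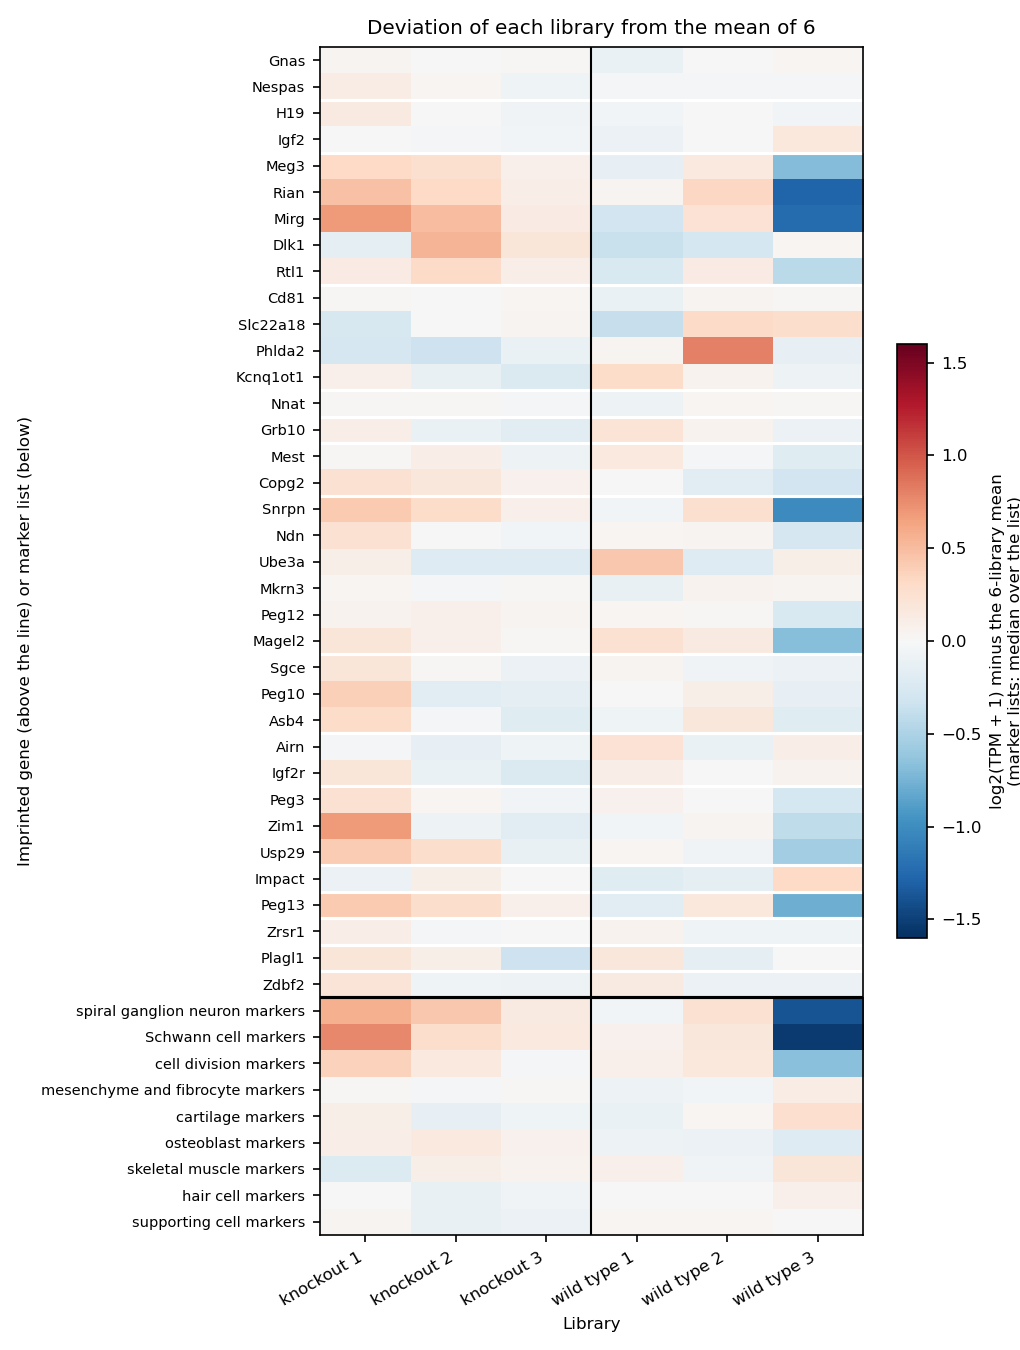
Deviation of each library from the mean of the 6 libraries on the log2(TPM + 1) scale, for the 36 imprinted genes (above the black line, ordered by cluster) and for the median of 9 marker lists (below it). The column of wild type 3 is blue for Meg3, Rian, Mirg, Snrpn, Magel2, Usp29 and Peg13 and for the neuronal (-1.38) and Schwann cell (-1.53) lists, and near white for Gnas, H19, Cd81 and Nnat.

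The balance between paternally and maternally expressed transcripts was compared within 8 clusters. One value per library, the log2 ratio of the summed paternal to the summed maternal TPM, was compared between genotypes by a two-sided exact permutation test, whose smallest possible p is 0.1. The balance differed widely between clusters, from a mean of about -8 log2 units for Dlk1-Meg3 (-7.89 in the knockout and -8.10 in the wild type) and Kcnq1 (-8.48 and -8.12) to 6.26 and 6.31 for Peg10. In Kcnq1 the maternal sum (326 to 369 TPM) was almost all Cd81 (318 to 355 TPM), a gene imprinted mainly in the placenta. Cdkn1c, of the wider list, was not counted in it. The paternal sum of Kcnq1 was Kcnq1ot1 alone, at 0.82 to 1.62 TPM, and that of Dlk1-Meg3 was 1.45 to 3.85 TPM. The maternal sum of Peg10 was Asb4 alone, at 0.51 to 1.11 TPM, under the filter. The size of these 3 ratios therefore rests on low and imprecise values. Only the Mest cluster, described above, had groups without overlap. In H19-Igf2 the balance was -0.95, -0.83 and -0.79 in the knockout and -0.85, -0.80 and -0.59 in the wild type, a difference of -0.11 (exact p = 0.5). For Snrpn-Ube3a it was 2.70, 2.85 and 2.70 in the knockout and 1.98, 2.84 and 1.65 in the wild type, a difference of 0.59 (exact p = 0.3), with the lowest value again in wild type 3. That difference was 0.34 without wild type 3 and 0.93 without wild type 2. The maternal sum of this cluster was Ube3a alone, whose imprinting is known from neurons, so in bulk cochlea the ratio need not follow the parental copies. The other differences were -0.06 for Igf2r-Airn (exact p = 0.7), 0.20 for Dlk1-Meg3 (exact p = 0.9), -0.18 for Peg3 (exact p = 0.7), -0.05 for Peg10 (exact p = 0.9) and -0.36 for Kcnq1 (exact p = 0.4). After Benjamini-Hochberg adjustment over the 8 clusters the exact permutation p was 0.9 in all but Mest (0.8).

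**Figure D4:**
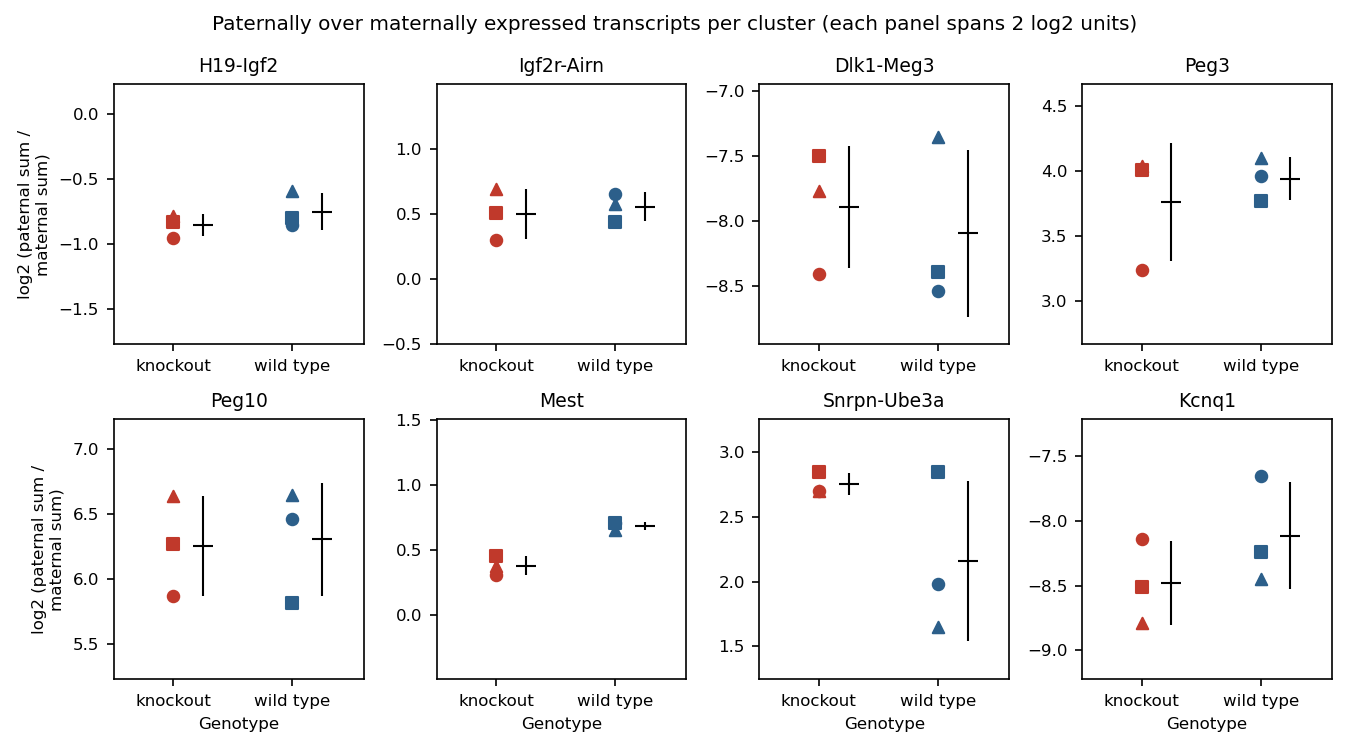
Log2 ratio of summed paternally to summed maternally expressed transcripts in each of 8 imprinted clusters, 1 point per library (symbols give the library number) with the mean and SD of the 3 libraries beside them. Every panel spans the same height of 2 log2 units around its own centre. The 3 knockout points of the Mest cluster (0.31 to 0.46) lie under the 3 wild-type points (0.65 to 0.71), and the groups overlap in the other 7 panels.

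A wider list of 44 other imprinted genes was counted in the same way. Of the 32 that were tested, 0 passed the test (limma, Benjamini-Hochberg over all features), 17 had a log2 fold change above 0 and 15 below, and the median was 0.01. The groups did not overlap in 4 genes of the list, Cobl, Th and Tssc4 among them, beside 4.6% of all features with the knockout higher and 4.74% with it lower. Ins2 and Zim3 were listed at 0 in all libraries. Cobl, an actin nucleator gene next to Grb10, stood at 68.6, 57.7 and 60.8 TPM in knockout libraries and 77.3, 69.0 and 81.9 TPM in wild-type libraries, with every knockout library below every wild-type library. Its log2 fold change was -0.28 (interval -0.51 to -0.06, limma unadjusted p = 0.0192, adjusted p = 0.989). In Th, the gene of tyrosine hydroxylase, and in Tssc4, a gene of the Kcnq1 region, every knockout library lay above every wild-type library. Th had a log2 fold change of 0.46 (limma unadjusted p = 0.0661), or 0.32 without wild type 3, at levels from 0.50 to 1.68 TPM, and Tssc4 one of 0.14 (limma unadjusted p = 0.129).

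The insulin-like growth factor axis, on which Igf2, Igf2r and Grb10 act, was described from 23 further genes. Of the 21 tested, 0 passed the test (limma, Benjamini-Hochberg), 6 had a log2 fold change above 0 and 15 below, and the median was -0.06. In 3 of them, Pappa2, Igfbp3 and Grb14, every knockout library lay below every wild-type library, beside 4.74% of all features. Pappa2, a protease gene whose product frees IGF from its binding proteins, stood at 17.6, 14.0 and 15.1 TPM in knockout libraries and 26.8, 18.4 and 21.4 TPM in wild-type libraries. The log2 fold change was -0.48 (interval -0.83 to -0.13, limma unadjusted p = 0.0134, adjusted p = 0.989), or -0.50 without wild type 3. Igfbp3, an IGF binding protein gene, stood at 228, 214 and 209 TPM in knockout libraries and 249, 234 and 237 TPM in wild-type libraries, a log2 fold change of -0.14 (limma unadjusted p = 0.0470). The adaptor gene Grb14 had a log2 fold change of -0.14 (limma unadjusted p = 0.0830) and Igfbp7 one of 0.23 (limma unadjusted p = 0.174), or 0.36 without wild type 3. Beside these, 4.0% of all features had an unadjusted p under 0.05.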

How the data were processed

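Total RNA of P3 cochleae was compared between 3 Plscr5-/- and 3 wild-type libraries, with groups from the labels' genotype field. The deposited values are TPM, a unit read from the values, which sum to the same total in each library, so depth is unknown and no counting interval can be given. DESeq2 and the build mm8 appear in the submitters' processing notes without a stated role. Not given in the sources used here are the aligner, the quantifier, the strand setting and the annotation. Symbols, overlaps and the Rtl1 transcript came from GENCODE M21 (GRCm38), and microRNA and promoter sequences from RefSeq (GRCm38.p6). No entry of the promoter table was found for H19, Impact, Nespas, Peg10, Peg13, Rtl1 and Sgce.

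A feature was tested where 3 or more libraries held at least 1 TPM (17097 of 55769). The values tested were log2(TPM + 1), with a pseudocount of 1, in limma 3.58.1 in R 4.3.3 (variance trend, robust moderation), with genotype as the only term. Benjamini-Hochberg adjustment ran over all tested features with a threshold of 0.05. The paternal to maternal balance was compared by exact permutation over libraries. Full values and tests are given for genes past the threshold (0 here), the 8 with the smallest p, and the highest paternal and maternal gene of each cluster with both kinds. The other imprinted genes are given by level, and up to 4 genes with the smallest p by list. Partner genes were named for their overlap or shared cluster, and Tubb3 as a marker. The genes and lists were chosen with earlier results of these data known, so no list was tested. Alternatives were other pseudocounts, filters, scalings and variance settings, the replicate number as a block, and the removal of each library.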

Additional observations from a re-analysis of the deposited data

How the results depend on the processing

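No imprinted gene passed the adjusted threshold under any of the 14 settings tried, and the lowest adjusted p of a gene described in full was 0.663 (limma, Benjamini-Hochberg). Of 261 comparisons of a log2 fold change with that of an alternative, over 19 genes, 255 kept their sign. The other 6 arose on leaving out a library: Igf2 (range -0.0994 to 0.0306, above 0 without wild type 3), Mest (-0.0539 to 0.119, below 0 without wild type 3 and, at -0.0145, without knockout 2), Cd81 (-0.0153 to 0.0626, below 0 without wild type 1), and Zim1 (-0.0018 to 0.429) and Sgce (-0.0075 to 0.135), below 0 without knockout 1. The number of genes whose groups do not overlap, 2 in the main analysis, was 1 with a filter at 5 TPM, median-ratio scaling or quantile normalisation, and 2 to 9 with each library left out, where fewer libraries make separation easier. Over all features, the count higher in the knockout was 0 to 2 and the count lower 0 to 3 with each library left out. The lower count, 2 in the main analysis, was 1 with median-ratio scaling or without haemoglobin and mitochondrial genes, 0 without the filter and 0 without the variance trend. The cause was not tested. The paternal to maternal balance changed sign in 4 clusters when the library in brackets was left out, with ranges of -0.153 to 0.043 in Igf2r-Airn (knockout 1), -0.0196 to 0.574 in Dlk1-Meg3 (wild type 1), -0.319 to 0.0809 in Peg3 (knockout 1) and -0.295 to 0.146 in Peg10 (knockout 1, wild type 1 or wild type 3). It kept its sign in Snrpn-Ube3a, from 0.338 to 0.933. Deviations from the group mean correlated between same-numbered libraries with r of 0.188, -0.055 and 0.242, against -0.269 to 0.126 between the others. These values do not settle whether the numbers pair libraries, and the main analysis fitted genotype alone. With a replicate block 0 features were lower in the knockout. At an unadjusted p under 0.05 by limma, the block gave 4 imprinted genes and 1250 features, against 1 and 684 in the main analysis. Median differences between scalings stayed under 0.1 log2 units over all features. TPM keeps no depth, so the precision of the genes under 2 TPM is unknown.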

Other observations

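Most genes on a list of those that set, keep or read imprints reached the level needed for testing in the P3 cochlea. Of the 27 listed, 25 were tested and 0 passed the test between genotypes (limma, Benjamini-Hochberg over all features). At an unadjusted p under 0.05 limma gave 0 of them, beside 4.0% of all features. Dppa3, known for protecting maternal methylation in the zygote, was listed at 0 in all libraries. In 20 of the 25 the log2 fold change was below 0 and in 5 above, with a median of -0.05 against -0.01 over all tested features, of which 46.6% were above 0. Zfp57, whose product binds methylated TGCCGC at imprinting control regions, stood at 29.6, 22.6 and 22.2 TPM in knockout libraries and 23.4, 23.8 and 17.0 TPM in wild-type libraries. The groups overlapped, with a log2 fold change of 0.21 (limma unadjusted p = 0.239), which was 0.06 without wild type 3. The smallest p of the list belonged to Arid4a, a chromatin factor gene, at 15.9, 17.7 and 16.5 TPM in knockout libraries and 19.9, 18.4 and 18.7 TPM in wild-type libraries. It was the 1 tested gene of the list whose groups did not overlap, beside 4.74% of all features with the knockout lower and 4.6% with it higher. Its log2 fold change was -0.18 (limma unadjusted p = 0.0938, adjusted p = 0.989). Cbx5, a heterochromatin protein gene, and Atrx, a chromatin remodeller gene, had log2 fold changes of -0.26 and -0.16 (limma unadjusted p = 0.0938 and 0.229), and their groups overlapped.

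Promoter windows of the imprinted genes held a median of 13 CpG, against 7 over all 32851 windows. The YY1 core GCCATNTT, searched on both strands, was in windows of 2 of the 29 genes with an entry, Ube3a and Mkrn3 (6.9%), against 6.96% of all genes. TGCCGC was in windows of 6 of 16 paternal genes (37.5%) and 3 of 11 maternal genes (27.3%), against 13.1% of all genes. By window the shares were 28.0% and 23.1%, against 11.6% of all windows. These windows cover 250 bases before and 50 after a start, and genes with several starts have several windows.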
